A study of Mus musculus with 8 samples.

Results

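The 9 genes described here encode surface proteins with which leukocytes leave the blood and settle in tissue. They were taken by name from a list in which Itga4, Itgb7 and Itgae are the gut-type integrin chains and Itgb1, Itgal, Itgb2, Selplg, S1pr1 and Cd44 are the other homing genes, so 9 of 32285 annotated mouse genes were followed. The list goes by name and not by a limit on a measured value, and it was made with earlier results of these data known. The list holds a ligand of selectins but no selectin. They were measured by droplet single-cell RNA sequencing (10x Genomics, 5′ chemistry) in CD45.2+ cells sorted from perfused mouse brain.

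Each of the 8 conditions gave 1 library. Wild-type (WT) C57BL/6J mice and App NL-G-F mice, in which the amyloid precursor protein gene carries a humanised amyloid-β sequence with the Swedish, Arctic and Iberian mutations, were either kept on water (control), given 2% dextran sulfate sodium (DSS) for 7 days (acute colitis), given 3 cycles of DSS of 5 days each (chronic colitis), or sensitised 3 times with ovalbumin and fed it on 7 days (food allergy). The labels give an age of 16 weeks for all mice, whereas the study's methods state a younger age. Up to 4 antibody hashtags marked the samples pooled in a library, and how hashtags map to mice is not given in the sources used here. A library and its condition cannot be told apart, and p-values over hashtag groups measure only the spread between groups that are not stated to be separate mice. The study's legend counts fewer animals for App NL-G-F chronic colitis than the number of its hashtag groups, so groups may share a mouse and p-values may be too small.

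In all, 50120 cells were kept, 4871 to 7199 per library, with a median of 2777 to 4130 unique molecular identifiers (UMIs, counted RNA molecules) per cell. Clusters were named from marker genes, and 42770 cells fell in 20 named types, of which 18 had at least 20 cells in 4 libraries or more. No cluster met the rule for microglia, although the tissue is brain. At a finer clustering resolution 1 cluster met it, with 20 or more cells in 2 libraries. Of 48602 distinct cell barcodes, 1484 were found in more than 1 library. The WT control library stood apart in short ribosomal transcripts: Rpl38 was at 692 CPM (counts per 1000000 UMIs) in its CD4 T cells, against 1778 to 4036 CPM in the other 7 libraries. Of the homing genes, Itgb2, Selplg and Cd44 were higher in the CD4 T cells of this library than in any other.

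An integrin is a pair of an alpha and a beta chain, and the pair sets what the cell binds. The α4 chain pairs with β7 to bind MAdCAM-1 on gut vessels, or with β1 to bind VCAM-1, which inflamed vessels of the brain also carry. The αE chain pairs with β7 to bind E-cadherin on epithelium, αL pairs with β2 as LFA-1 to bind ICAMs, PSGL-1 (Selplg) is the main ligand of the selectins, S1P receptor 1 leads lymphocytes out of tissue, and CD44 binds hyaluronan.

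The promoters of the partner chains Itga4 and Itgb7 are shown because the levels of these genes peaked in different cell types. The Itga4 window (GRCm38.p6, chr2:79255176-79255475, plus strand) and the Itgb7 window (chr15:102231886-102232185, minus strand) run from 250 bases before to 50 bases after the gene start, as RefSeq gives it, and were matched by symbol with those of Itgb1 and Cd44, 4 of the 9 genes. Capitals mark the letters ACCACA (a RUNX motif) and ACTTCC (an ETS core), searched on both strands.
Itga4: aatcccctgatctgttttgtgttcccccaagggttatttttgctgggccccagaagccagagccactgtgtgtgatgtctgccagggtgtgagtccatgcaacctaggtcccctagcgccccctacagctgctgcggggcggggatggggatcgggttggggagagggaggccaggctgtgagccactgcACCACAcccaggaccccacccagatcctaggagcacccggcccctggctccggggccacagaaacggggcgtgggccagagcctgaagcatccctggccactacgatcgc
Itgb7: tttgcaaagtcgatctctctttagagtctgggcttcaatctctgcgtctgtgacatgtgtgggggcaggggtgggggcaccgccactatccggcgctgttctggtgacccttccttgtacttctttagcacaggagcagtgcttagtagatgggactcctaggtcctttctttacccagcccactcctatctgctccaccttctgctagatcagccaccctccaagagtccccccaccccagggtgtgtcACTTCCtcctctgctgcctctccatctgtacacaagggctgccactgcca
The RUNX letters began 60 bases before the Itga4 start, and 16.8% of all 32851 mouse promoter windows held them. The ETS letters stood at the Itgb7 start, and 23.8% of the windows held them. Each window lacked the motif of the other, and the windows of Itgb1 and Cd44 held neither motif. A match is a description of these letters and not a binding site.

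**Figure D1:**
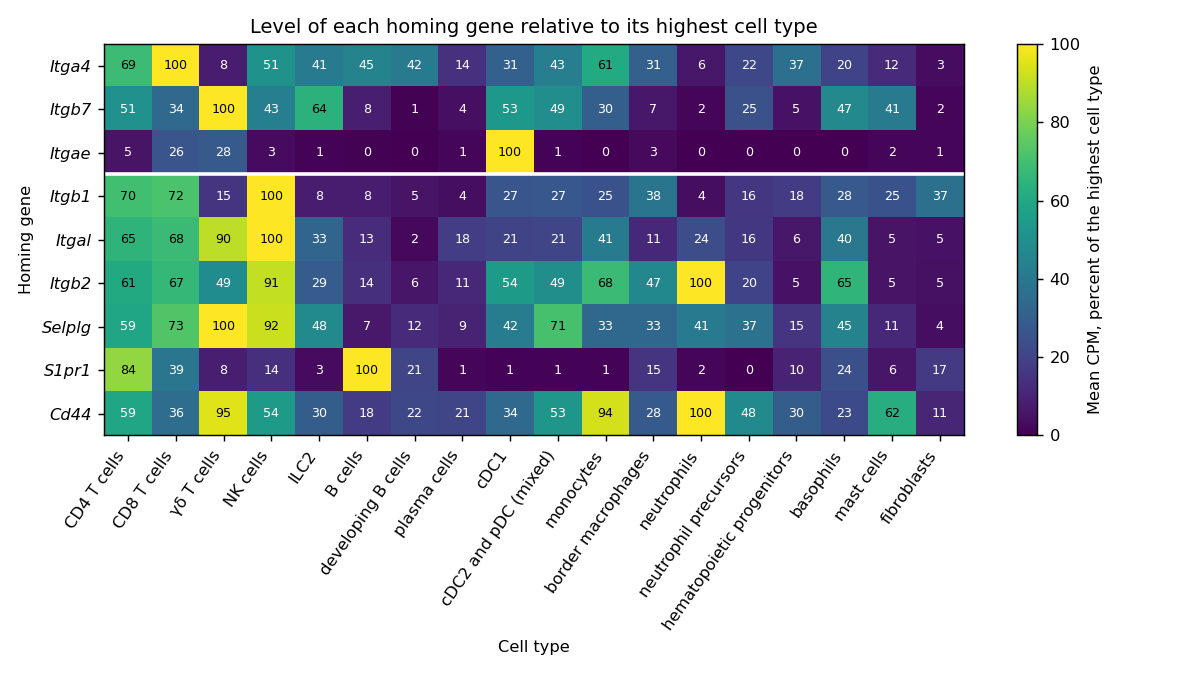
Mean CPM of each homing gene in 18 cell types, as a percent of the highest type of that gene (rows are genes, with the gut-type chains above the white line, columns are cell types, and yellow marks the highest type). Itga4 peaked in CD8 T cells, Itgb7 in γδ T cells and Itgae in type 1 dendritic cells.

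Itga4 (α4; GRCm38 chromosome 2, 79255426 to 79333123, plus strand) was highest in CD8 T cells among the 18 types. Its level there was 418 ± 38.2 CPM (SD, n = 8 libraries), with 357 CPM in the lowest library, a median of 431 and 477 in the highest. CD4 T cells followed at 287 ± 40.2 CPM and monocytes at 255 ± 66.1 CPM. CD8 T cells were above CD4 T cells in 8 of 8 libraries, by 0.53 ± 0.16 on the log2(CPM + 10) scale. An exact sign-flip permutation test over 8 libraries cannot go below p = 0.0078125, which this pair reached (two-sided), and its p adjusted over the 153 pairs of neighbouring types was 0.0520. The order of CD4 T cells, monocytes and NK cells (214 ± 38.0 CPM) did not exceed the spread between libraries. At the low end were γδ T cells at 33.3 ± 13.9 CPM and neutrophils at 26.2 ± 10.0 CPM. Migratory dendritic cells, which reached 20 cells in only 3 libraries and are not among the 18 types, had 492 ± 25.9 CPM. A UMI of Itga4 was found in 64.0% of CD8 T cells (exact 95% interval 62.3 to 65.6%, median depth 2807 UMIs) and in 14% of the deeper neutrophils (6349 UMIs). Intervals here and below cover counting error only. Free RNA, read from barcodes without cells, held a median of 156 CPM of Itga4, above the level in γδ T cells and neutrophils. The share of free RNA in the cells themselves was estimated from hemoglobin UMIs alone. Hemoglobin made up only 0.00513 to 0.105% of free RNA, so the estimate rests on few molecules and is rough. It had a median of 0.190% in γδ T cells (maximum 5.82%). In neutrophils the median was 0.788% (maximum 4.75%). The estimate reached 100% in ILC2, 75.0% in hematopoietic progenitors and 48.2% in neutrophil precursors.

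Across all 9 genes, none of the 153 neighbour pairs reached an adjusted p of 0.05 in this exact permutation test, and 37 had an unadjusted p below 0.05. The steps between neighbours are therefore given below as sizes and as the number of libraries that share their direction.

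Itgb7 (β7; chromosome 15, 102215995 to 102231944, minus strand) was highest in a type where Itga4 was low. The γδ T cells held 624 ± 52.6 CPM (524, 620.1 and 695 CPM in the lowest, median and highest library). Group 2 innate lymphoid cells (ILC2) held 402 ± 21.8 CPM, and γδ T cells exceeded them in 8 of 8 libraries by 0.62 ± 0.14 (log2). Type 1 dendritic cells (cDC1), at 332 ± 26.2 CPM, were below ILC2 in 8 of 8 libraries. CD4 T cells at 315 ± 35.8 CPM, a class that mixes type 2 and plasmacytoid dendritic cells at 305 ± 31.4 CPM and basophils at 294 ± 62.3 CPM did not differ from their neighbours beyond the spread. The widest step lay between neutrophil precursors and B cells, which were lower by 1.41 (log2) in 8 of 8 libraries, at 52.1 ± 17.5 CPM. Developing B cells were lowest at 4.43 ± 2.18 CPM. A UMI was found in 82.2% of γδ T cells (80.1 to 84.1%, median depth 3429.5 UMIs) and 61.2% of ILC2, against 4.63% of fibroblasts (4996 UMIs), with a median of 99.4 CPM in free RNA.

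Itgae (αE, CD103; chromosome 11, 73090583 to 73147446, plus strand) was concentrated in cDC1. Their level was 169.9 ± 17.7 CPM, from 147 to 198 CPM with a median of 169. The γδ T cells had 48.0 ± 16.4 CPM (32.5 to 76.0), and cDC1 exceeded them by 1.67 ± 0.42 (log2) in 8 of 8 libraries. CD8 T cells had a similar mean of 44.6 CPM but a much wider spread, from 5.92 to 84.9 CPM with a median of 39.3. CD4 T cells were at 8.93 ± 7.47 CPM, and the means of the other types in 4 libraries or more were 5.14 CPM or less. Cells with a UMI made up 59.1% of cDC1 (56.6 to 61.6%, median depth 9375 UMIs), 12.4% of γδ T cells, 10.9% of CD8 T cells and 0.260% of neutrophils. After each cell was thinned to 1000 UMIs, the shares were 15.9%, 4.60%, 5.38% and 0.0815%. Free RNA held a median of 9.88 CPM.

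**Figure D2:**
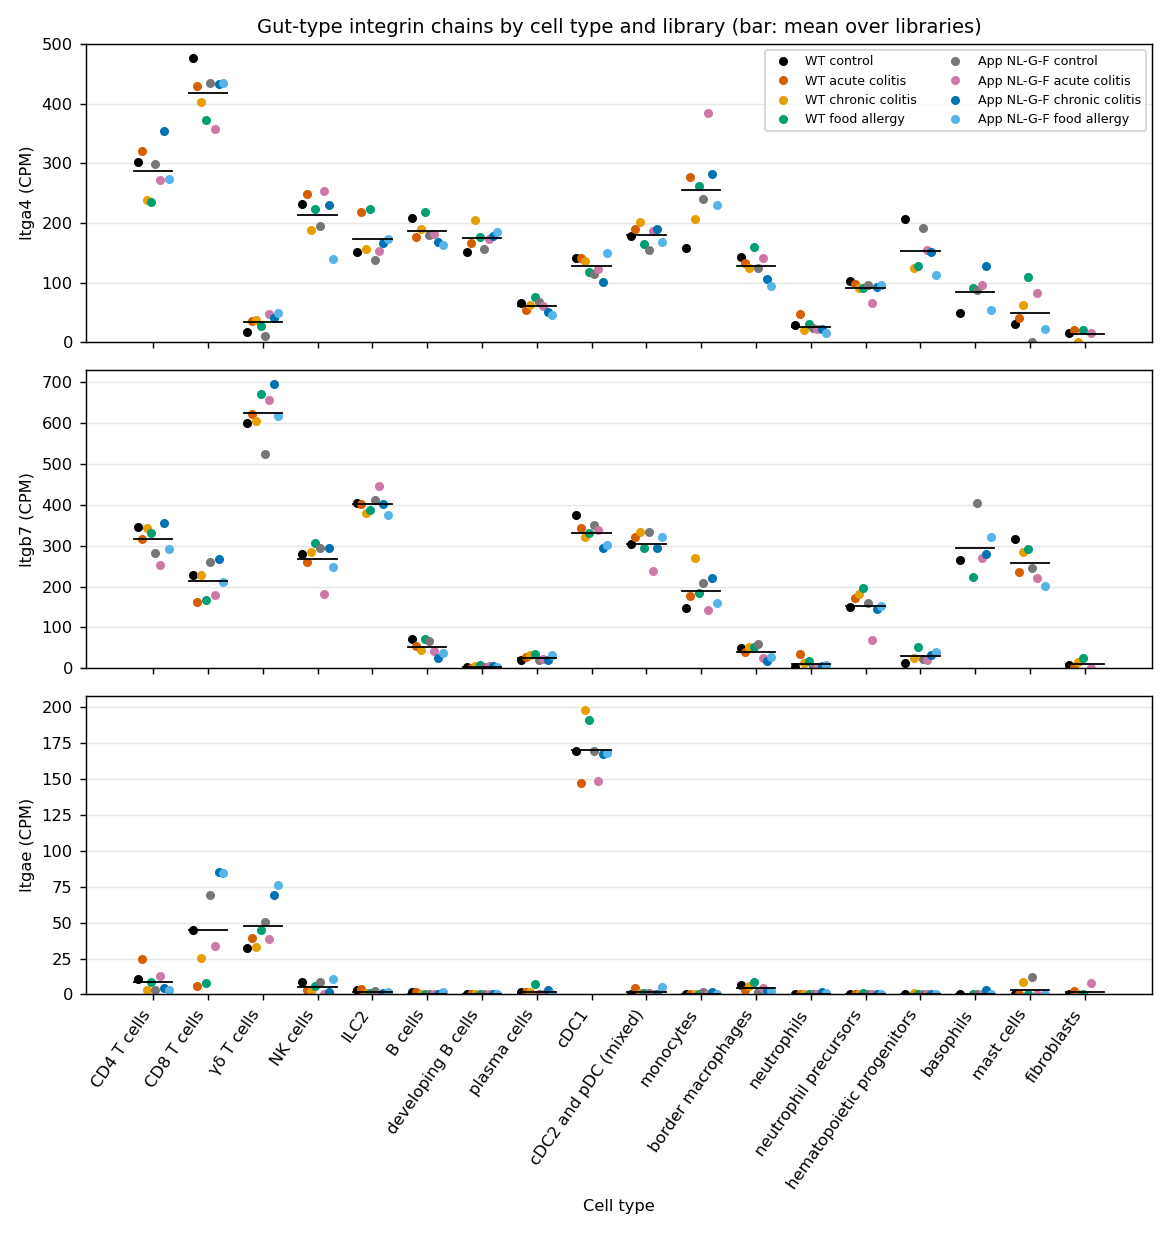
CPM of Itga4, Itgb7 and Itgae by cell type (x axis), 1 point per library coloured by condition, with the mean over libraries as a line. Itga4 lay between 357 and 477 CPM in CD8 T cells, Itgb7 between 524 and 695 CPM in γδ T cells and Itgae between 147 and 198 CPM in cDC1.

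Itgb1 (β1, the partner of α4 in VLA-4 and of many other alpha chains; chromosome 8, 128685654 to 128733200, plus strand) was highest in NK cells. These held 609 ± 57.1 CPM, from 525 to 706 with a median of 617. CD8 T cells (436 ± 49.0 CPM) were lower than NK cells in 8 of 8 libraries, by 0.48 ± 0.17 (log2), and did not differ from CD4 T cells (424 ± 66.3 CPM) beyond the spread. Border macrophages followed at 234 ± 26.1 CPM, lower than CD4 T cells by 0.82 ± 0.21 in 8 of 8 libraries. The 2 types richest in Itgb7 had little Itgb1, with 92.7 ± 21.1 CPM in γδ T cells and 49.1 ± 4.63 CPM in ILC2. NK cells with a UMI made up 75.2% (median depth 3132 UMIs), against 9.04% of B cells (2369 UMIs), and free RNA held a median of 151 CPM.

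Both chains of LFA-1 were high in NK cells. Itgal (αL; chromosome 7, 127296260 to 127335138, plus strand) was at 272 ± 36.4 CPM there, from 225 to 324 with a median of 265. The γδ T cells, at 245 ± 19.8 CPM, were within the spread of NK cells and above CD8 T cells (186 ± 25.7 CPM) in 8 of 8 libraries. Monocytes had 112 ± 51.4 CPM, and their 52.1 to 219 CPM was the widest range of Itgal in any type. Itgb2 (β2, which also pairs with αM and αX in myeloid cells; chromosome 10, 77530252 to 77565708, plus strand) was at 558 ± 84.0 CPM in neutrophils, from 441 to 694 with a median of 555. NK cells had 508 ± 31.5 CPM, which did not differ from neutrophils beyond the spread, and monocytes had 379.9 ± 40.7 CPM. Itgam (αM), from the pathway list, was highest in the same neutrophils at 458 ± 43.6 CPM, while their Itgal was 64.7 ± 21.4 CPM. NK cells with an Itgal UMI made up 53.9% and neutrophils with an Itgb2 UMI 81.2% (median depth 6349 UMIs), against 4.25% and 8.88% of fibroblasts. Free RNA held medians of 49.6 CPM of Itgal and 140.2 CPM of Itgb2.

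Selplg (chromosome 5, 113818536 to 113832644, minus strand) was widespread. Among the 18 types the γδ T cells led with 1202 ± 141 CPM, from 999 to 1391 with a median of 1236, and NK cells at 1104 ± 75.2 CPM were within their spread. CD8 T cells had 875 ± 78.2 CPM, below NK cells in 8 of 8 libraries by 0.33 ± 0.15 (log2). B cells were low at 81.9 ± 8.04 CPM. Outside the 18 types, migratory dendritic cells held 1262 ± 226 CPM in 3 libraries. At the finer resolution the microglia cluster held 2338 ± 1058 CPM in 2 libraries, and plasmacytoid dendritic cells, there split from the mixed class, held 1196 ± 61.1 CPM in 8. A UMI was found in 94.8% of γδ T cells (3429.5 UMIs), 17.2% of B cells (2369 UMIs) and 10.0% of fibroblasts (4996 UMIs), with a median of 320.4 CPM in free RNA. Of the enzymes that build the selectin-binding form of PSGL-1, Tpst2, a tyrosine sulfotransferase, was also highest in γδ T cells (345 ± 48.8 CPM), and Fut7, a fucosyltransferase, in basophils (164 ± 26.9 CPM).

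S1pr1 (chromosome 3, 115710433 to 115715072, minus strand) was highest in B cells and CD4 T cells. B cells had 132 ± 18.7 CPM, from 112 to 171 with a median of 128, and CD4 T cells had 111 ± 27.7 CPM, lower in 8 of 8 libraries by 0.25 ± 0.21 (log2). CD8 T cells, at 51.6 ± 24.2 CPM, were 1.03 ± 0.35 below CD4 T cells in 8 of 8 libraries. Basophils had 32.2 ± 16.4 CPM (12.7 to 60.4, n = 6 libraries), and fibroblasts and border macrophages had 22.6 ± 18.7 and 19.7 ± 12.3 CPM. The γδ T cells were low at 11.1 ± 4.03 CPM. When only cells above an order-of-magnitude UMI cutoff were kept, the B cell level was 89.97 CPM and CD4 T cells ranked first. ILC2 had 3.72 ± 2.08 CPM, and monocytes, neutrophils, cDC1 and the mixed dendritic class had 2.25 CPM or less. The share with a UMI was 28.0% in B cells (2369 UMIs) and 1.22% in neutrophils (6349 UMIs), and free RNA held a median of 18.7 CPM. Klf2, a transcription factor that drives S1pr1, was highest in mast cells (1413 ± 304 CPM), whose S1pr1 was at 8.10 ± 6.06 CPM, and second in B cells (1241 CPM). Cd69, which removes the receptor from the surface, was highest in ILC2 at 268 ± 42.6 CPM.

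Cd44 (chromosome 2, 102811141 to 102901665, minus strand) had 3 types at the top that could not be ordered. Neutrophils had 211 ± 44.1 CPM (138 to 282, median 209), γδ T cells 201 ± 31.3 CPM and monocytes 197 ± 16.2 CPM. Mast cells, the next type, had 131 ± 30.6 CPM, below monocytes in 7 of 7 libraries. A UMI was found in 65.9% of neutrophils (6349 UMIs) and 8.64% of B cells (2369 UMIs), and free RNA held a median of 77.4 CPM.

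The share of the homing UMIs held by the gut-type chains ran from 39.7% in mast cells to 2.77% in neutrophils, and many types did not differ beyond their spread. These shares are compared between types only, since UMIs of different genes are not on 1 scale. In mast cells, Itga4, Itgb7 and Itgae made up 39.7 ± 6.06% of the UMIs of the 9 genes. Developing B cells had 38.2 ± 3.29% and ILC2 38.0 ± 1.83%. B cells had 36.7 ± 3.07% and cDC1 36.4 ± 1.63%, whereas NK cells had 15.6 ± 1.18% and neutrophils 2.77 ± 1.5%. Similar shares came from different chains. At the finer resolution developing B cells held 174 CPM of Itga4 and 4.12 CPM of Itgb7, and B cells 183 and 50.5 CPM. Their share was thus mostly Itga4, a chain that also pairs with β1. ILC2 held 173 CPM of Itga4 and 406 CPM of Itgb7, and mast cells 49.4 and 256 CPM. Between the beta chains that can pair with α4, β7 held 89.1 ± 0.927% of the sum of Itgb7 and Itgb1 UMIs in ILC2 and 87.1 ± 2.47% in γδ T cells. It held 42.8 ± 5.70% in CD4 T cells, 32.7 ± 3.51% in CD8 T cells and 13 ± 7.62% in developing B cells. ILC2 ranged from 87.5 to 90.5% over libraries and CD8 T cells from 27.5 to 38.5%, so these types did not overlap in any library.

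**Figure D3:**
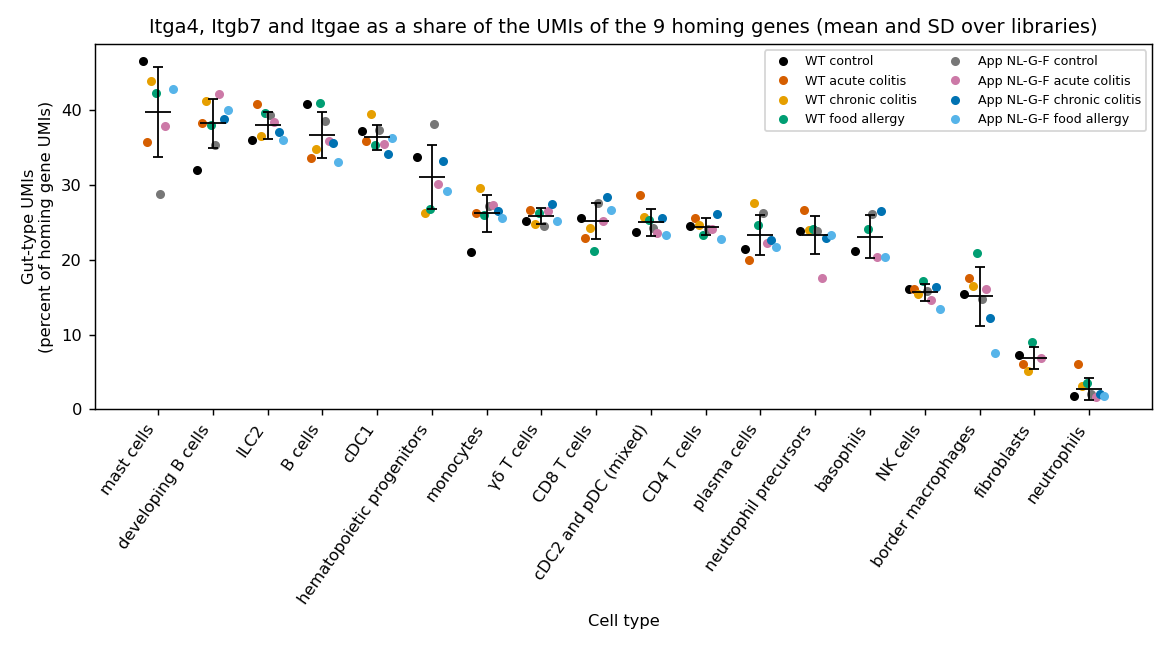
Percent of the UMIs of the 9 homing genes that came from Itga4, Itgb7 and Itgae, by cell type, 1 point per library, with the mean and SD in black. The means of mast cells (39.7%), developing B cells (38.2%), ILC2 (38.0%), B cells (36.7%) and cDC1 (36.4%) lay near the top, and neutrophils lay between 1.70 and 6.06%. In developing B cells and B cells the share was mostly Itga4.

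Within single cells, both chains of αEβ7 were detected together in 51.2% of cDC1 (48.7 to 53.7%), 10.4% of γδ T cells and 5.99% of CD8 T cells. The product of the separate shares was 50.7%, 10.2% and 4.63%. Both chains of α4β1 were found in 42.0% of CD8 T cells, where the product was 38.6%, and both of LFA-1 in 43.6% of NK cells, where it was 41.1%. Both chains of α4β7 were found in 51.3% of cDC1 and 53.9% of neutrophil precursors, the second a type with a median depth of 18899 UMIs. These shares move with depth, and the types differ in depth.

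Over the 18 types, the levels of Itgb2 and Selplg were the closest pair among the 9 genes (Pearson r of the mean log2(CPM + 10) = 0.85), followed by Itgal and Itgb2 (0.82). Itga4 and Itgb7 had r = 0.31. These values describe 18 types that share libraries. Outside the list, the genes most like Itgb7 were Pfkp (0.89), Sept9 (0.87) and Anxa6 (0.83), and those most like Itgae were Pianp (0.83), Qpct (0.81) and Fnbp1 (0.78). The pattern of Itga4 was closest to the ribosomal transcripts Rpl37, which stood apart in the WT control library, and Rpl34 (both 0.82), and to St8sia4 (0.82), a polysialyltransferase. For Itgb1 the genes were Bbc3 (0.83), Arl4c (0.81) and Ccdc85b (0.80), and for Itgal they were Rinl (0.84), Cd226 (0.83) and Hcst (0.83). Sema4a was nearest to both Itgb2 and Selplg (0.90 for each), with Pstpip1 (0.86) also near both. S1pr1 was nearest to Gm30054 (0.83), Gm8369 (0.82) and Dtx1 (0.80), and Cd44 to Slc22a15 (0.75), Lrrfip1 (0.74) and Stx11 (0.74).

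The ligands and partner chains of the pathway list were also read over the same types. Madcam1, the vessel ligand of α4β7, did not exceed 0.431 CPM in any type. Vcam1 was highest in border macrophages (197 ± 46.1 CPM), and Fn1, the fibronectin gene, in monocytes (1368 ± 378 CPM). Cdh1, which encodes E-cadherin, was highest in basophils (182 ± 33.6 CPM). Ccr9, a chemokine receptor of gut homing, led in the mixed dendritic class (145 ± 55.4 CPM) and in ILC2 was at 94.5 CPM.

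The study asked how colitis and food allergy change immune cells of the brain. For this, UMIs were summed per hashtag group and cell type, and each treatment was compared with the control of its genotype by edgeR's quasi-likelihood test, adjusted by Benjamini-Hochberg over all genes of a type and contrast. The homing genes were tested 710 times in 14 types, and 9 tests had an adjusted p below 0.05, against a background of 1.27% of all gene tests called. The members' share equals that background. At an unadjusted p below 0.05 there were 73. The share of all genes at that limit is not given here, so this count is not read as a result about the homing genes. Of the gut-type chains 2 of 205 tests were called, both for Itga4, and of the other homing genes 7 of 505. In 8 calls the treated or App NL-G-F groups were higher and in 1 they were lower, and all but 1 used the WT control library, against which 1.65% of all gene tests were called higher and 0.426% lower. In bulk sums of this kind, fewer cells with a gene and less RNA per cell cannot be told apart.

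Of the 9 calls, 7 were in monocytes. Among all genes tested in monocytes, the share called ran from 0.119% in App NL-G-F food allergy to 13.2% in WT acute colitis. Itgal in WT monocytes was at 47.1 and 58.9 CPM in the 2 control hashtag groups, at 114 and 131 CPM in acute colitis and at 86.6 and 106 CPM in food allergy. The acute difference was 1.16 ± 0.28 on the log2 scale (SE, edgeR adjusted p = 0.00809) and the food allergy difference 0.83 ± 0.24 (adjusted p = 0.0395). WT chronic colitis had only 1 hashtag group of monocytes, at 73.2 CPM, and was not tested. App NL-G-F control monocytes were at 101 and 104 CPM, which was 1.01 ± 0.24 above WT control (edgeR adjusted p = 0.0191), where 3.45% of the genes tested in monocytes were called. In App NL-G-F chronic colitis Itgal was at 187 and 271 CPM, 1.07 ± 0.25 above the App NL-G-F control (edgeR adjusted p = 0.0168), where 2.89% were called, and this contrast did not use the WT control library. In each of these contrasts the groups did not overlap.

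Itga4 in WT monocytes was at 122 and 188 CPM in the control, 262 and 303 CPM in acute colitis and 231 and 309 CPM in food allergy. The differences were 0.82 ± 0.25 (edgeR adjusted p = 0.0287) and 0.76 ± 0.22 (adjusted p = 0.0366). Itgb1 was at 102 and 119 CPM in the control and at 177 and 218 CPM in acute colitis, a difference of 0.78 ± 0.22 (edgeR adjusted p = 0.0184). Both chains of α4β1 were thus higher in WT acute colitis monocytes, in a contrast in which 13.2% of the genes tested were called, and 6.33% were called in WT food allergy. Icam1, a ligand of LFA-1, was the 1 pathway gene called of 21 tested in WT food allergy, at 31.2 against 79.8 CPM.

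Summed marker lists of other cell types moved with these monocyte groups. The 9 neutrophil precursor markers, led by Chil3, summed to 9088 CPM in WT control monocytes, 593 in WT acute colitis, 1280 in WT food allergy, 5698 in App NL-G-F control and 1171 in App NL-G-F chronic colitis. The 8 neutrophil markers, led by S100a8, summed to 2482, 189, 989, 5376 and 364 CPM in the same order. Other lists moved as well. The 7 B cell markers, led by Cd79a, summed to 1.30, 326, 22.9, 16.8 and 288 CPM in that order, and the 7 plasmacytoid markers, led by Ly6d, to 58.6, 272, 92.0, 55.4 and 353 CPM. The 9 border macrophage markers summed to 6047, 3261, 3006, 5015 and 1454 CPM. Klk1 of the plasmacytoid and Lyve1 of the border macrophage list were at 0, and no gene of the other 3 lists was. Few genes carried some of these sums. Over all monocyte groups, 3 of the 9 neutrophil precursor and 5 of the 8 neutrophil markers exceeded 10 CPM. So did 2 of the 7 B cell, 2 of the 7 plasmacytoid and 6 of the 9 border macrophage markers. The part of these lists in the result was not tested.

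**Figure D4:**
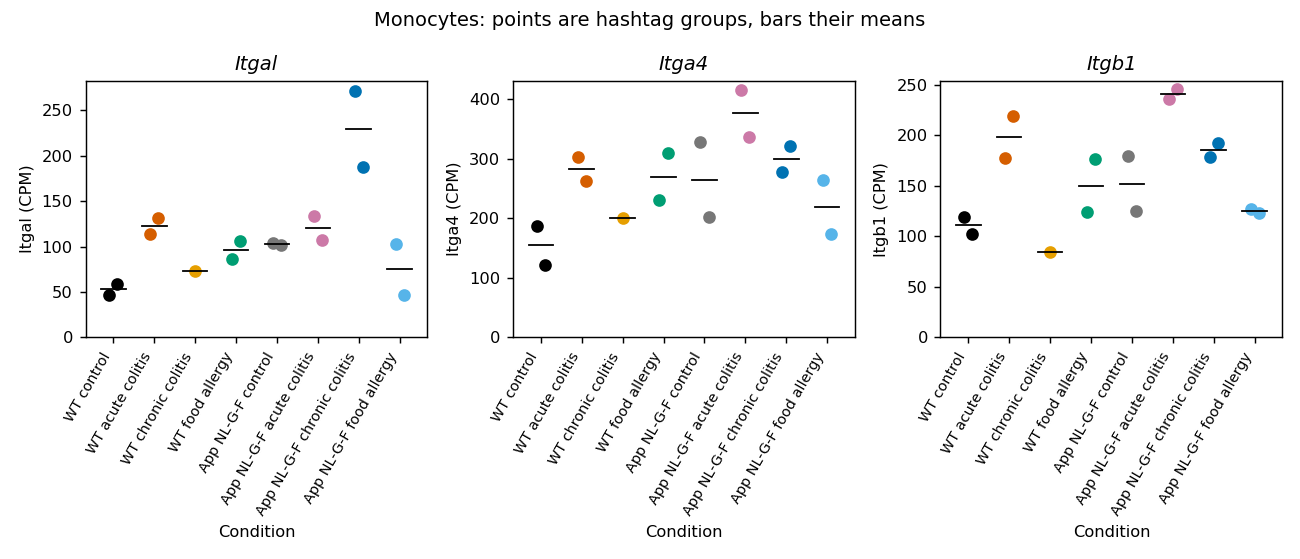
CPM of Itgal, Itga4 and Itgb1 in monocytes, 1 point per hashtag group, by condition (x axis), with the group mean as a line. WT control lay lowest for Itgal (47.1 and 58.9 CPM) apart from 1 App NL-G-F food allergy group at 46.8 CPM, and App NL-G-F chronic colitis lay highest (187 and 271 CPM).

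The other 2 calls were outside monocytes. S1pr1 in CD8 T cells was at 41.5, 58.4, 61.7 and 29.8 CPM in the 4 WT control groups and at 92.8 and 125 CPM in WT acute colitis, a difference of 1.34 ± 0.34 (edgeR adjusted p = 0.0208), where 2.31% of genes were called. These groups were unevenly spread over the sets of immediate-early genes described below, since the first pair of control groups was in the low set and the second pair and both colitis groups were in the high set. The 2 high-set control groups, with 10 and 7 UMIs, were below both colitis groups, with 35 and 28 UMIs. The other 8 calls between conditions compared high-set groups only. In the same contrast none of the 17 pathway genes tested was called. Selplg in cDC1 was at 619 and 637 CPM in WT control and at 415 and 426 CPM in WT chronic colitis, and fell by 0.43 ± 0.11 (edgeR adjusted p = 0.0163), where 5.53% of genes were called. The PSGL-1 enzyme genes Tpst2 and St3gal4 fell by 1.03 ± 0.24 and 0.73 ± 0.20 in the same cells.

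These calls rest on few groups. Leaving out 1 hashtag group at a time ended each of them at least once, for groups of WT control (hashtags 4, 6 and 7), WT acute colitis (4 and 5), WT chronic colitis (6 and 7), WT food allergy (4 and 5), App NL-G-F control (6 and 7) and App NL-G-F chronic colitis (6). For 8 of the 9 calls such a fit sets 1 group against 2, with the spread taken from the other groups of the type and the lone group assumed to vary like them, so a lost call also reflects fewer groups. The fewest calls, 3, were left without WT control hashtag 7. No call changed direction. Over these fits the difference for S1pr1 in CD8 T cells ranged from 1.13 to 1.59 with adjusted p up to 0.431, and for Itgal in App NL-G-F chronic monocytes from 0.80 to 1.30 with adjusted p up to 0.377. Itga4 in monocytes ranged from 0.59 to 1.21 in WT acute colitis and from 0.52 to 1.13 in WT food allergy, Itgb1 from 0.65 to 0.93, and Itgal from 1.03 to 1.36 in WT acute colitis, 0.69 to 1.02 in WT food allergy and 0.84 to 1.18 in App NL-G-F control. Selplg in cDC1 ranged from -0.48 to -0.39. Whether the 2 genotypes responded to a treatment by different amounts was tested as an interaction. None of 289 such edgeR tests of homing genes was called, against 0.886% of all gene tests. In 23 the unadjusted p was below 0.05, again without the share of all genes at that limit. The difference between genotypes was 1.22 for Itgal in monocytes in food allergy (edgeR adjusted p = 0.205) and 1.55 for S1pr1 in CD8 T cells in acute colitis (adjusted p = 0.142).

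Within libraries, hashtag groups fell in a high and a low set by the immediate-early genes of their T cells, genes such as Fos and Jun that are switched on quickly in a stimulated cell. The sum of these genes was 3117 to 5851 CPM in 16 groups and 619 to 1668 CPM in 14, and each library held both. The sets are a split of the data and not a label. They also differed in cells, since the high set held all 232 fibroblasts, 1496 of the cDC1 against 57, and 1008 monocytes against 38, whereas CD8 T cells were 1024 against 2463. Homing genes were compared between the sets with library as a block.

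Of 79 tests of homing genes in 11 types, 16 were called, 8 higher and 8 lower in the high set. The background was 8.24% of all gene tests called. In 27 tests the unadjusted p was below 0.05, a limit for which the share of all genes is not given here. The largest change of a gut-type chain that passed this test was in NK cells. Their Itga4 ran from 135 to 360 CPM in the high set (median 236, n = 16 groups) and from 82.9 to 271 CPM in the low set (median 119, n = 11). It was higher in the high set in 7 of 7 libraries, by 0.80 ± 0.15 (log2, edgeR adjusted p = 0.000203), where 8.19% of the genes tested were called.

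In CD8 T cells, where 7.58% of the genes tested were called, Itgb7 was lower in the high set. It ran from 85.3 to 253 CPM in the high set (median 162) and from 189 to 300.4 CPM in the low set (median 258), lower in the high set in 7 of 7 libraries, and the log2 difference was -0.61 ± 0.10 (edgeR adjusted p = 7.88e-05). Itgb1 (-0.35 ± 0.09) and Itga4 (-0.27 ± 0.08) were also lower, and Cd44 was higher by 0.48 ± 0.14. The Itga4 call was lost in most fits that left out 1 hashtag group and the Cd44 call in some, as counted further below. In CD4 T cells, with 10.1% of genes called, Itgb7 was lower (-0.34 ± 0.08) and S1pr1 and Cd44 were higher by 0.50 ± 0.12 and 0.38 ± 0.09. S1pr1 and Cd44 were higher in 8 of 8 libraries, with S1pr1 at a mean of 125 against 84.8 CPM.

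The filter on low counts removed Itgae in CD8 T cells from the main test of the sets. The high set ran from 0 to 17.4 CPM (median 7.74, n = 16 groups) and the low set from 16.9 to 107 CPM (median 66.4, n = 11), so that the sets overlapped only at their edges. It was lower in the high set in 7 of 7 libraries. In App NL-G-F food allergy, for example, the low set held 102 CPM (177 UMIs) and the high set 13.9 CPM (6 UMIs), and in App NL-G-F control they held 90.03 CPM (147 UMIs) and 10.5 CPM (6 UMIs). Without the filter the log2 difference was -3.07 ± 0.24 (edgeR adjusted p = 5.77e-33, 2.91% of genes called). With groups of at least 50 cells only it was -3.24 ± 0.28, in a fit that Itgae entered through the low set, so no p is given. Cells with a UMI made up 1.86% of CD8 T cells in the high set (19 of 1024, interval 1.12 to 2.88%, median depth 2638.5 UMIs) and 14.7% in the low set (362 of 2463, 13.3 to 16.2%, 2891 UMIs). Thinned to 1000 UMIs the shares were 0.810% and 7.31%, and neutrophils held 0.246% and 0.218% unthinned (5446 and 10658 UMIs). The 7 cDC1 markers, led by Naaa and with 1 at 0, summed to 21.1 ± 10.6 CPM in the high-set and 28.5 ± 24.9 CPM in the low-set CD8 T cells, with the defining marker Xcr1 at 0.330 and 0.395 CPM. Cd8a, a chain of the CD8 coreceptor itself, was at 952 CPM in the high set and 1403 CPM in the low set, and Cd8b1 at 1179 and 1260.4 CPM. The part of these in the result was not tested. NK cells showed the same direction for Itgae, with a UMI in 1 of 1402 cells of the high set (0.0713%, interval 0.00181 to 0.397%) and 33 of 1187 cells of the low set (2.78%, 1.92 to 3.88%). The γδ T cells did not share this direction. Of the 4 libraries with both sets, Itgae was higher in the high set in 3, at 38.9 against 0 CPM in WT chronic colitis, 81.8 against 51.2 CPM in App NL-G-F chronic colitis and 87.9 against 39.3 CPM in App NL-G-F food allergy. In App NL-G-F control it was at 41.0 against 103.6 CPM, and the low set held 12 UMIs or fewer in each of these libraries.

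**Figure D5:**
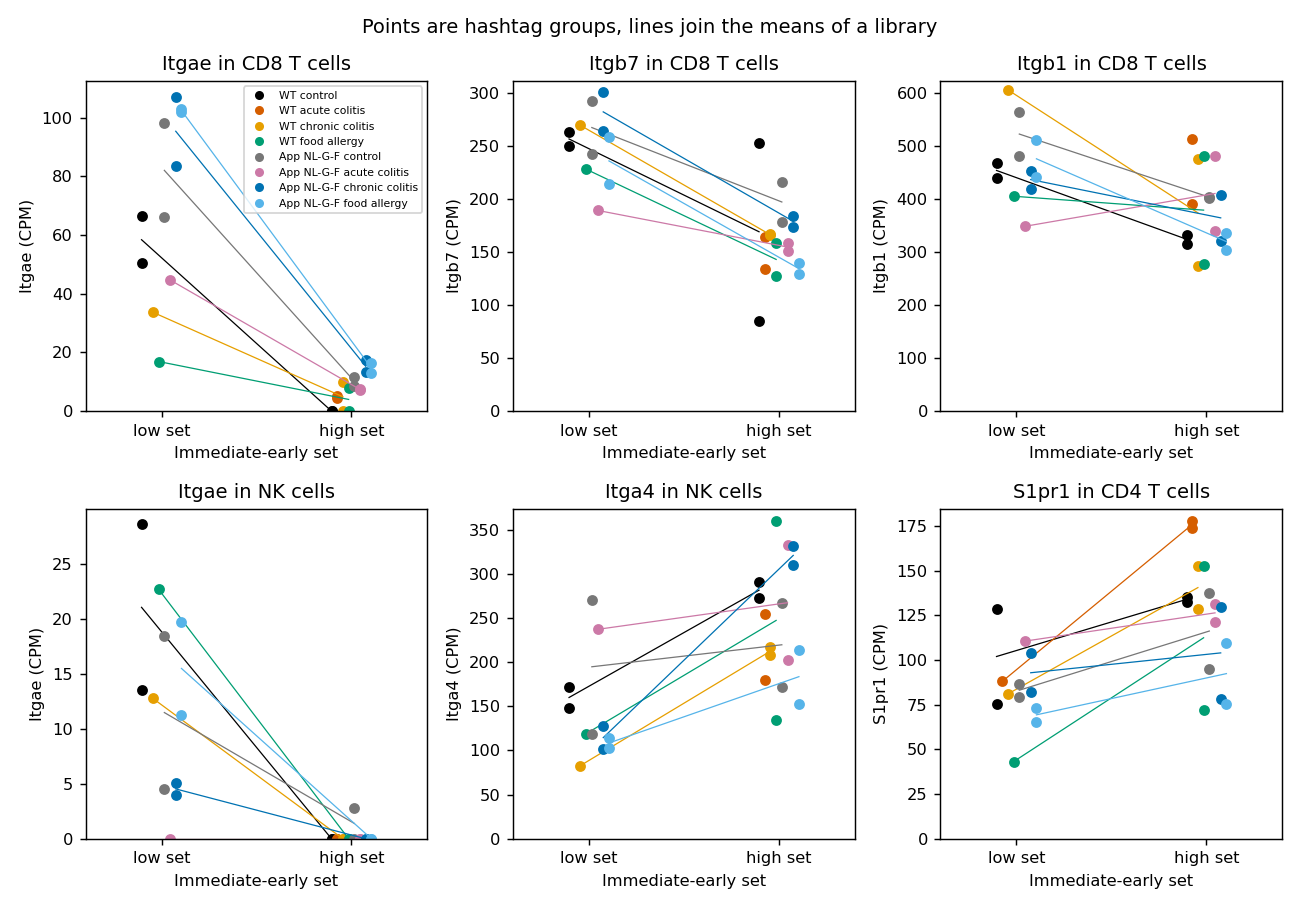
CPM of Itgae, Itgb7 and Itgb1 in CD8 T cells, Itgae and Itga4 in NK cells and S1pr1 in CD4 T cells, 1 point per hashtag group, with the low immediate-early set on the left and the high one on the right and lines joining the means of 1 library. The Itgae points of CD8 T cells lay at 0 to 17.4 CPM in the high set and 16.9 to 107 CPM in the low set.

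The remaining calls fell in other types. In the mixed dendritic class 5 of 7 genes were called, in a class where 29.5% of all genes tested were: Itgb2 (0.82 ± 0.13), Itgb1 (0.61 ± 0.16) and Itgb7 (0.29 ± 0.11) were higher in the high set, and Itgal (-0.69 ± 0.20) and Selplg (-0.34 ± 0.10) were lower. The Itgb7 call was lost in most fits that left out 1 hashtag group, as counted further below. This class holds 2 cell types, and Ccr9 (-1.62) and the myeloid chain Itgam (2.88) changed with these homing genes. Cd44 was higher in ILC2 of the high set by 0.75 ± 0.20, where 6.98% of genes were called. Itgb1 in γδ T cells had a difference of -0.95 ± 0.23 (1.7% called) and Itgb7 in neutrophil precursors one of -0.58 ± 0.14 (1.95% called). No homing gene was called in B cells, developing B cells, neutrophils or plasma cells with the filter. In B cells Itgb7 was called without it (-0.56 ± 0.15, edgeR adjusted p = 0.0116, 2.7% of genes called), and Selplg was called with groups of at least 50 cells only (-0.57 ± 0.12, edgeR adjusted p = 0.00562, 3.66% called). Itgb7 in NK cells was called under both of these settings (-0.31 ± 0.09 with 3.8% of genes called and -0.41 ± 0.11 with 7.45% called). Without the filter there were also calls of S1pr1 in NK cells (1.21 ± 0.29), of Itga4 in γδ T cells (-1.24 ± 0.36, 1.33% called) and of Itga4 in neutrophil precursors (-0.36 ± 0.11, 3.15% called).

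Of the 5 egress genes of the pathway list, 3 or 4 were tested in each of the 7 types with a called homing gene, and those called did not move one way. Cd69 was higher in the high set in all 7 types in which a homing gene was called, by 1.51 ± 0.11 in CD4 T cells and 1.82 ± 0.15 in ILC2. Klf2 was higher in CD8 T cells (0.56 ± 0.14), NK cells (1.71 ± 0.24) and neutrophil precursors (2.28 ± 0.28). S1pr4, another S1P receptor, was lower in CD4 T cells (-0.31 ± 0.09), ILC2 (-0.58 ± 0.16) and the mixed dendritic class (-1.23 ± 0.18). Itga1, the α1 chain that marks tissue-resident lymphocytes, was lower in CD8 T cells (-0.91 ± 0.16) and NK cells (-1.38 ± 0.18). In NK cells 7 of 17 pathway genes tested were called, against 8.19% of all genes tested there, among them the egress receptor S1pr5 (1.21 ± 0.31), which was higher in the high set.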

How the data were processed

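CD45.2+ cells of perfused brains were read as 8 libraries, 1 per condition. The authors aligned the reads and made the deposited UMI counts per gene and barcode with Cell Ranger 6.1.2 per the labels (mm10), while the file headers name another version, and the deposited matrices were not filtered for cells. Cells were called here against free RNA (EmptyDrops-like test, false discovery rate 0.01, at least 500 UMIs), and kept if 200 or more genes were detected and mitochondrial UMIs were no more than 5%. The 4 hashtags were assigned per cell, and 4666 cells with several hashtags (9.31%) were left out as doublets, while 1525 without one entered levels only. Clusters (scanpy 1.11.5, resolution 0.5) were named from fixed markers, with homing and pathway genes kept out of the clustering, and single cells were gated on 2 markers.

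Levels are CPM of summed UMIs per type and library (at least 20 cells). Tests used edgeR 4.0.16 (TMM, quasi-likelihood), with DESeq2 1.42.0 as an alternative. Interaction tests and fits without the WT control library were added after the data were seen. The 9 genes, the 40 pathway genes and the tests were chosen with earlier results of these data known. Named genes were the 9, the pathway genes called where a homing gene was called or among the highest of their list, and the 3 genes most like each, and a few of them are not reported here. On simulated CD4 T cell counts, WT acute colitis against WT control, edgeR recovered 7.58% of genes changed 1.5-fold, 57.6% of those changed 2-fold and 93.9% of those changed 4-fold among 6841 genes. For the high against the low immediate-early set in CD4 T cells, it recovered 75%, 98.1% and 100% at the same folds among 5510 genes.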

Additional observations from a re-analysis of the deposited data

Results flagged for a closer look

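In 5 of 47 groups of libraries checked, 1 library stood far from the rest of its cell type, where chance flags about 1 in 20 groups. S1pr1 in CD4 T cells was at 169 CPM in WT acute colitis and at 78.4 to 119 CPM in the other 7 libraries. The WT acute colitis CD4 T cells came from 2 groups of the high immediate-early set (251 and 173 cells), the set where S1pr1 was higher, and 1 group of the low set with at least 20 cells (22 cells), and the part of this in the result was not tested. Cd44 in γδ T cells was at 268 CPM in WT control and at 161 to 208 CPM in the others. The gut-type share of homing UMIs in the mixed dendritic class was 28.7% in WT acute colitis and 23.3 to 25.7% elsewhere. In neutrophil precursors it was 17.6% in App NL-G-F acute colitis and 22.9 to 26.7% elsewhere, and in neutrophils 6.06% in WT acute colitis and 1.70 to 3.52% elsewhere.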

How the results depend on the processing

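Between conditions, no paired analysis was possible because the labels carry no shared replicate numbers and each condition has 1 library, whereas the immediate-early sets were compared within libraries. Of 25 calls, 9 were kept when each hashtag group was left out in turn, 10 under every other alternative, 7 under all of them, and none reversed direction. The calls kept under all were Itgb7, S1pr1 and Cd44 in CD4 T cells, Itgb7 in CD8 T cells, Itga4 in NK cells, and Itgb1 and Itgb2 in the mixed dendritic class, all between the immediate-early sets.

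The 9 calls between conditions became 3 with DESeq2, 20 with no filter beyond 1 UMI, and, because 8 of them were contrasts with the WT control library, 1 without that library or within App NL-G-F, and ranged from 3 to 9 when 1 group was left out. The share of all genes called between conditions with DESeq2 or without the filter is not given here. The 3 and 20 calls are therefore not read as results about the homing genes. The 16 calls between sets ranged from 12 to 16 when 1 group was left out. Between the sets, Itga4 in CD8 T cells was lost in 20 of 28 such fits, Itgb7 in the mixed dendritic class in 15 and Cd44 in CD8 T cells in 11, and the cause was not tested.

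Keeping only cells above the order-of-magnitude cutoff moved Itga4 in CD8 T cells to 373 CPM and S1pr1 in B cells to 89.97 CPM. Counting cells with at least 2 UMIs gave a share of 33.4% for Itga4 in CD8 T cells, 58.8% for Itgb7 in γδ T cells, 37.9% for Itgae in cDC1, 50.5% for Itgb1 and 23.3% for Itgal in NK cells, 67.0% for Itgb2 and 37.3% for Cd44 in neutrophils, 86.2% for Selplg in γδ T cells and 6.65% for S1pr1 in B cells. Thinning to 500 in place of 1000 UMIs gave 19.5, 26.3, 9.01, 25.3, 12.5, 23.6, 10.9, 44.5 and 7.09% for the same genes in the same order. Without 1 library at a time, mean levels in the highest type ranged from 409 to 426 CPM for Itga4, 614 to 639 for Itgb7, 166 to 173 for Itgae, 595 to 621 for Itgb1, 265 to 279 for Itgal, 539 to 575 for Itgb2, 1175 to 1231 for Selplg, 126 to 135 for S1pr1 and 201 to 221 for Cd44. Types with few cells, such as mast cells and fibroblasts, limit the depth behind low values.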
